A study of Rattus norvegicus with 352 samples.

Results

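Potassium channel genes were described across whole brain hemispheres of heterogeneous stock rats. The members are the genes whose symbol starts with Kcn, the pore-forming subunits of most mammalian potassium channels and many of their auxiliary subunits. Kcnq1ot1, an RNA named after the channel gene Kcnq1, was left out. The deposited table held 95 such genes of 38354 in all, in 21 subfamilies by symbol. Of these, 81 had a mean level of at least 1 and entered the tests, among 16683 genes that did. Level here means log2 of CPM plus 1, where CPM are a library's estimated counts scaled to a total of 1000000.

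The study profiled polyA RNA from frozen hemispheres of naive rats that had received no treatment. Heterogeneous stock rats are outbred and descend from a mix of inbred strains, so that each animal carries its own combination of founder genomes. All libraries analysed here form 1 group, with no genotype, agent or time to compare. Each library was counted as 1 rat, although the labels never state this outright, and the sources used here give neither ages nor sexes.

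Potassium channels let potassium leave or enter a cell along its gradient and thereby set the resting potential, end the action potential and pace repeated firing. Voltage-gated members open on depolarisation, calcium- and sodium-activated members respond to ions that enter during firing, inward rectifiers hold the resting potential and buffer potassium in glia, and Kcnk channels carry background leak. Auxiliary subunits such as Kcnab, Kcnip, Kcnmb and Kcne proteins alter gating and surface delivery of the pore subunits. In the brain, many of these genes are used unevenly by neuron types and by glia.

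Library totals ran from 5418230 to 42980793 estimated counts, with a median of 21881769. Only 5 of the 81 tested members had fewer than 10 counts in the smallest library. Libraries resembled each other closely: the median correlation of a library with all others was 0.991 in the middle library and 0.982 in the lowest, and the most alike pair stood at 0.995. Libraries 4, 53, 35 and 1 other stood apart by this measure. Library 4 was lowest of all on the granule cell and Purkinje cell marker scores, at -12.3 and -10.7 SD from the mean, so its cerebellar markers were scarce. It was also the lowest library for 13 members and the highest for 6. The other one was lowest on the thalamic, monoamine, hypothalamic and choroid plexus scores and highest on the cortical score, and is called the library of low hypothalamic score. The bulk tissue holds many cell types, so fewer cells of a type and less RNA per cell cannot be told apart in any value below.

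Together the Kcn genes took 6837.7 ± 169.03 CPM (SD over all libraries), with a lowest library of 6199 and a highest of 7318. The total therefore varied little, with a coefficient of variation of 2.47%. Among voltage-gated pore subunits, the Kcna subfamily (delayed rectifiers of axons and nerve terminals) summed to 991 ± 50.4 CPM and the Kcnc subfamily (fast channels of rapidly firing neurons) to 919 ± 60.1 CPM. The Kcnq subfamily, which carries the M current that restrains repetitive firing, summed to 837 ± 41.4 CPM, and the inward rectifiers of the Kcnj subfamily to 852 ± 30.8 CPM. The Kcnab auxiliary subunits, which assemble with Kcna channels, summed to 721 ± 23.1 CPM. These 5 subfamilies made up 14.5%, 13.4%, 12.2%, 12.5% and 10.6% of the Kcn total. Levels per transcript length were not computed, since no length table was used here, so these sums are shares of counts and give no order of molecules.

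Single genes of these subfamilies were also abundant in counts. Kcna2, an axonal delayed rectifier, ranged from 323.6 CPM in the lowest library to 492 in the highest with a median of 427.9, and its partner Kcna1 ranged from 272.98 to 393 with a median of 346.6. Kcnab2, an auxiliary subunit of Kcna channels, ranged from 419 to 628 CPM around a median of 546. Kcnj10, the inward rectifier by which astrocytes clear potassium, ranged from 157.7 to 293.7 CPM around a median of 238.2.

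The remaining subfamilies had lower sums. Kcnh (ether-a-go-go type channels) summed to 481 CPM and was led by Kcnh3 at a median of 129.4 CPM. Kcnk summed to 327.5 CPM and was led by Kcnk1, a weak leak channel of glia and neurons, at a median of 109.1 CPM. The Kcnip calcium sensors of A-type channels summed to 315.5 CPM, with Kcnip3 the leading gene, and the A-type pore subunits of the Kcnd subfamily to 281.6 CPM, led by Kcnd2. Kcnma1, the large-conductance calcium-activated channel, stood alone in its subfamily at a mean of 257.6 CPM. The sodium-activated Kcnt channels summed to 167.8 CPM, led by Kcnt1.

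Modifier and minor subfamilies were lower again. The silent modifier subunits Kcng, Kcnf, Kcns and Kcnv, which act by joining Kcnb channels, summed to 127.9, 63.5, 57.7 and 46.6 CPM, with Kcng1, Kcnf1, Kcns2 and Kcnv1 the leading genes. Small-conductance calcium-activated Kcnn channels summed to 58.3 CPM (led by Kcnn2), Kcnmb subunits of Kcnma1 to 43.8 CPM (led by Kcnmb4, the neuronal form), Kcnrg to 27.6 CPM and Kcne subunits to 13.3 CPM (led by Kcne2). Of the 95 genes, 85 were above 0 in every library. The 14 members below the mean level of 1 were Kcna7, Kcna10, Kcne1, Kcne3, Kcnh8, Kcnj1, Kcnk5, Kcnk7, Kcnk18, Kcnmb1, Kcnmb3, Kcnn4, Kcnu1 and Kcnv2. Several of these are known from other organs, such as Kcnj1 from kidney and Kcnu1 from sperm. The share of libraries with a value above 0 was 4.68% for Kcna10, 8.48% for Kcne1, 58.8% for Kcnmb3 and 69.3% for Kcnu1.

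**Figure D1:**
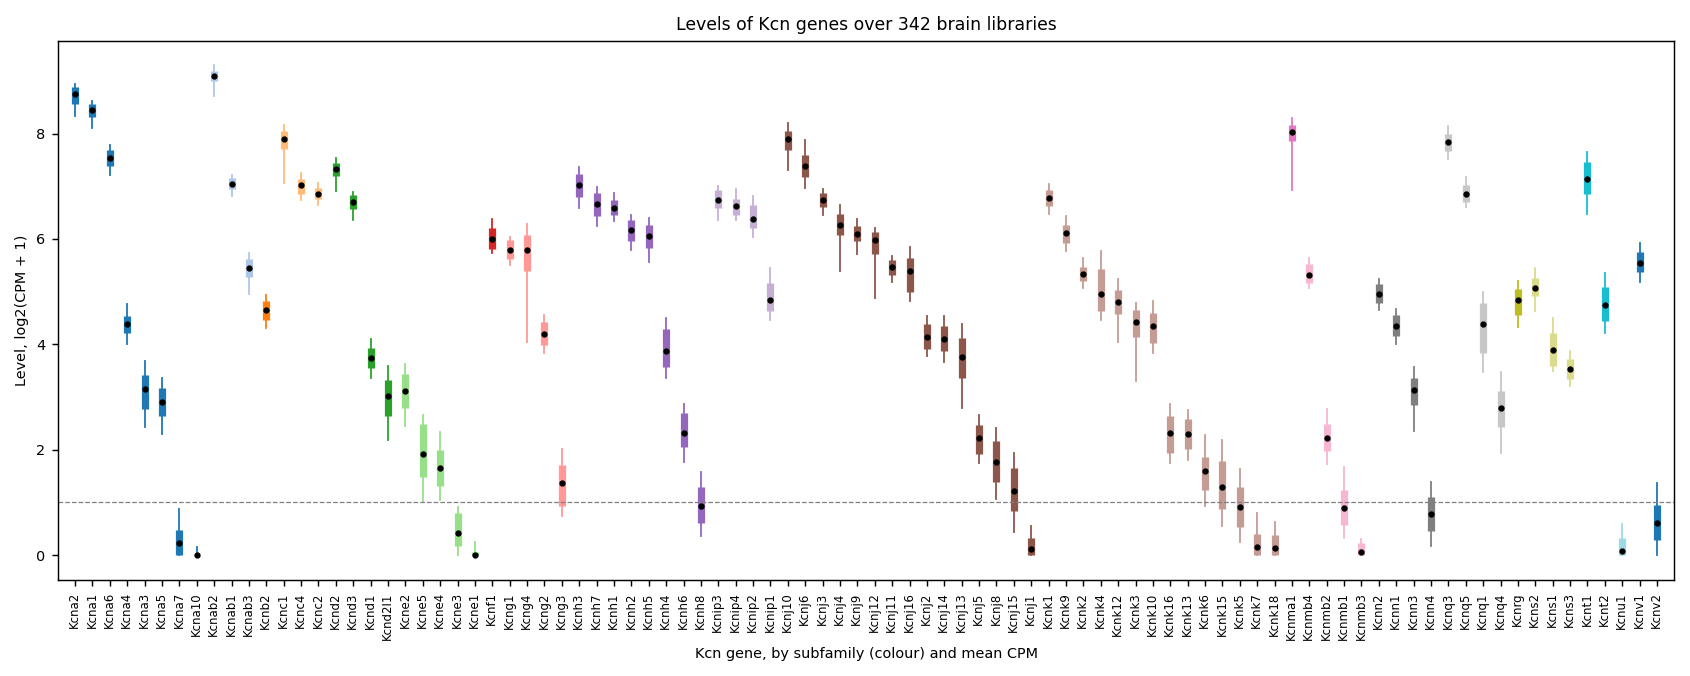
Level (log2 of CPM plus 1) of Kcn genes over all libraries. The thin line runs from the lowest to the highest library, the thick bar from the 5th to the 95th percentile and the point is the median; the dashed line is the minimum mean level of 1 used for the tests, which 81 genes reached.

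Promoter windows from RefSeq (assembly GRCr8) were matched by symbol for 64 of the 95 members. Each window runs from 250 bases before a transcript start to 50 after it. In 29 of them that start was the gene's outer start, and in 35 it lay elsewhere in the gene. Kcn windows were rich in CG: their median was 13 CG dinucleotides and 60.8% GC, against 7 and 52.3% over all 27457 windows. GGGCGG, the GC box read by Sp factors, lay on either strand in 50% of Kcn windows against 34.9% of all. TATAAA lay in 3.12% (2 genes) against 14.3%, and CCAAT in 23.4% (15 genes) against 37.7%. The clock E-box CACGTG was in 4.69% against 6.65%, the cyclic AMP element TGACGTCA in 0 against 1.91%, and the D-box TTATGNAA, read by Dbp, in 0 against 3.54%. The short glucocorticoid receptor motif AGAACA was in 12.5% against 20.1%, and the palindromic glucocorticoid response element, which holds AGAACA, in 0 against 0.00728%. All motifs were searched on both strands, and a match is a description of letters only.

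Shown here are the 250 bases before the start of 3 members on which later results turn, 1 expressed with cerebellar markers (Kcnc1), 1 with astrocyte markers (Kcnj10) and 1 with vessel markers (Kcnj8). They are written 5′ to 3′ on the gene's strand, with every GGGCGG and CCAAT on either strand in capitals. Kcnc1 lies on the plus strand, window chr1:106038997-106039246, with 3 GC boxes and 0 CCAAT. Kcnj10 lies on the plus strand, window chr13:87334260-87334509, with 2 of each. Kcnj8 lies on the minus strand, window chr4:177246549-177246798, with 1 GC box and 0 CCAAT.
Kcnc1: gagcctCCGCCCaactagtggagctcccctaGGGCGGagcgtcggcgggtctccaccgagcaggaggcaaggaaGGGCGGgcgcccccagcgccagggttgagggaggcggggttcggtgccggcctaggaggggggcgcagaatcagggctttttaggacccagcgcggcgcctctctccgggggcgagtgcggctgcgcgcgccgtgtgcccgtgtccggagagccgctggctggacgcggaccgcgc
Kcnj10: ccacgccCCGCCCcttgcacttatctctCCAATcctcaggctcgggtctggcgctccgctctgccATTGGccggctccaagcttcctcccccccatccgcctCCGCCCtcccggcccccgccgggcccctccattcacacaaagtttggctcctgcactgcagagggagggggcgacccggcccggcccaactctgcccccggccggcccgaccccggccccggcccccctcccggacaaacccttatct
Kcnj8: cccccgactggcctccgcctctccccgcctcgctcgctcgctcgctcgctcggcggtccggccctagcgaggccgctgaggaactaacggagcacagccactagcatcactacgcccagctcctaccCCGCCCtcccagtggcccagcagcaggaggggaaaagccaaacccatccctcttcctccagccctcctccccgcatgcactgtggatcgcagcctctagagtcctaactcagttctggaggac
All 3 windows held a GC box, a motif found in 50% of Kcn windows and 34.9% of all windows.

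To judge spread between libraries, each gene's SD was divided by that of genes of similar level, read from a lowess curve over all 16683 genes (the trend SD). The median member had 1.15 times the trend SD, against 0.987 for all genes, and 27.2% of members (22) lay under the trend against 51.9% of all genes. Kcn genes thus varied somewhat more than other genes of like level. A ratio of 2 or more was found in 5 of 81 members, a share close to that of all genes (5.23%, 872 genes). They were Kcnma1 (2.75 times), Kcng4 (2.52), Kcnt1 (2.48), Kcnk4 (2.26) and Kcnq1 (2.19), and the same 5 passed without library 4, with Kcng4 at 2.31. Among the members under the threshold were Kcnj16 (1.90), Kcnt2 (1.76), Kcnj13 (1.69), Kcnj6 (1.65), Kcnip2 (1.61) and Kcnh3 (1.60). At 1.5 times the trend, 18 members passed against 12.5% of all genes. The narrowest members were Kcnmb2 (0.762), Kcnj5 (0.783) and Kcns3 (0.790).

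Kcnma1 encodes the pore of the large-conductance calcium- and voltage-activated channel and lies on chr15:351065-1057117 (GRCr8, plus strand). It ranged from 120.5 CPM in the lowest library through a median of 261.2 to 313.3 in the highest, and its values fell into 2 groups with nothing between. In 14 libraries (4.09%) it stood between 120.5 and 145.7 CPM, and in all others (95.9%) between 224.3 and 313.3. The empty stretch spanned 0.62 on the log2 scale, from 7.20 to 7.82, against 0.12 for the next widest gap in any member (Kcnk4) with at least 5 libraries on each side. A mixture of Gaussian curves placed the means at 7.09 and 8.04, a distance of 11.4 SD. Within the upper group alone the SD was 1.12 times the trend, so the wide spread of Kcnma1 came with the 14 libraries. These libraries came from 5 blocks, as defined by the first 6 characters of the library identifiers, and had totals of 13820500 to 27635200, well inside the range of all libraries.

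By the rule that each group hold at least 5% of libraries, 0 of 81 members formed separate levels, against 0.809% of all genes. With a minimum of 2%, chosen after the data were seen, Kcnma1 was the only member to do so, against 1.01% of all genes. The groups of Kcnma1 were defined by its own values, so no test compares them.

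The neighbouring gene Dlg5, a scaffold of cell polarity at chr15:125287-237334, split in the same way. Its own values formed 2 levels, with 14 libraries at 21.8 to 27.4 CPM and the others at 41.7 to 57.1, and all 14 low libraries were the 14 with low Kcnma1. The lncRNA LOC103693799, at chr15:313570-350875 between Dlg5 and Kcnma1, also formed 2 levels, 14 libraries at 1.28 to 2.56 CPM and the others at 2.68 to 7.07, and 13 of its low libraries were shared. On the other side of Kcnma1, Lrmda at chr15:1275139-2334153 shared 0 of its 14 lowest libraries with Kcnma1, as did Zfp503, Comtd1, Vdac2 and Samd8. Over all tested genes, 3 shared at least 10 of the 14 and 2 shared all 14, counting Kcnma1 itself. Kcnma1 and its beta subunit Kcnmb4 were weakly and negatively related within the upper level (r = -0.12, rho = -0.10). In the 14 low libraries r was 0.48, and neither value carries a test.

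**Figure D2:**
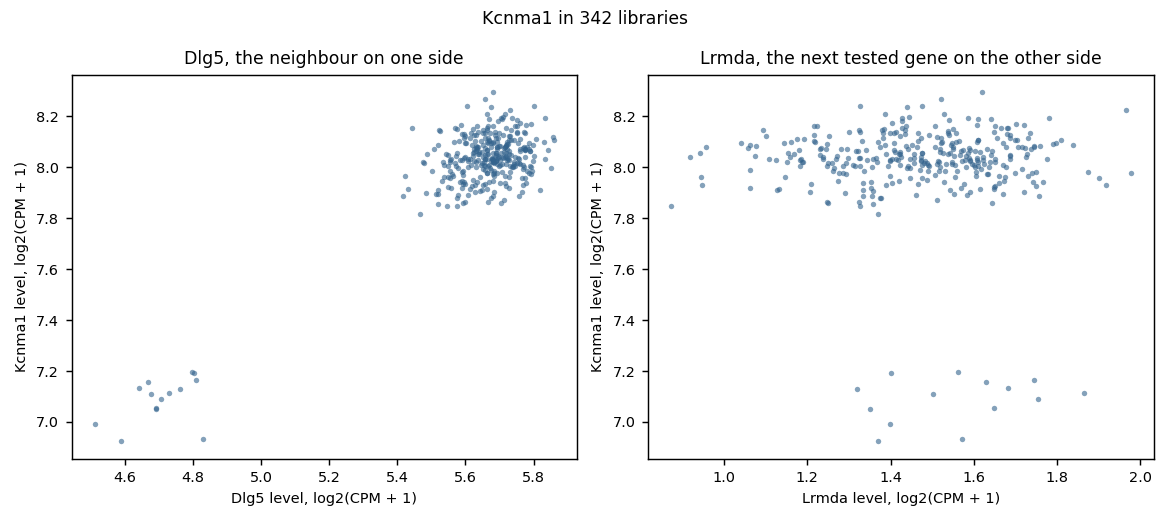
Level of Kcnma1 (log2 of CPM plus 1) against Dlg5 (left) and Lrmda (right), 1 point per library. The 14 libraries low in Kcnma1 are also the 14 low in Dlg5. In Lrmda they lie between 1.32 and 1.87, inside the 0.87 to 1.98 of the other libraries.

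Kcnt1, Kcnk4 and Kcnq1 varied widely without separate levels. Kcnt1, a sodium-activated channel, ranged from 88.3 to 199.3 CPM with a median of 140.7. Kcnk4, a mechanosensitive leak channel, ranged from 20.96 to 53.9 CPM with a median of 30.04, and Kcnq1, the channel of the slow cardiac delayed rectifier, from 10.2 to 30.99 with a median of 19.8. Library values of Kcnt1 and Kcnq1 formed a continuous range, and 6 libraries lay above a narrow gap in Kcnk4. The 95th percentile was 1.54 times the 5th for Kcnt1, 1.75 times for Kcnk4 and 1.99 times for Kcnq1.

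All 3 moved with Meg3 and Miat, long non-coding RNAs retained in the nucleus, which were chosen after the data were seen. The correlation with Meg3 over all libraries was 0.88 for Kcnt1, 0.87 for Kcnk4 and 0.67 for Kcnq1, and Meg3 and Miat themselves correlated at 0.96. In all, 10 members correlated with Meg3 at 0.5 or more, a share like that of all genes (12.4%), and 2 at -0.5 or less (all genes 2.62%). The other positive members were Kcnn2 (0.68), Kcnh4 (0.67), Kcnip2 (0.66), Kcnt2 (0.64), Kcnrg (0.63), Kcnk9 (0.57) and Kcnq5 (0.50), and the negative ones Kcng4 and Kcnj10 (both -0.52). The part of nuclear RNA content in these values was not tested. Kcnk4 overlaps LOC134483962, a lncRNA on the opposite strand, with which it correlated at 0.78. The sources used here do not say whether counting used strand.

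By likeness of pattern over all libraries, the genes most like Kcnt1 were Leng8 (r = 0.93), P3h3 and Snhg11 (both 0.92). The genes most like Kcnk4 were Meg3, Miat and Fcho1 (all 0.87), and those most like Kcnq1 were LOC134483384 (0.85), Prpf39 (0.81) and Tial1 (0.80). Kcnt2, the relative of Kcnt1, ranged from 17.5 to 39.98 CPM with a median of 25.7 and had the glutamate receptor genes Gria2 (0.87) and Gria3 (0.84) among the genes most like it. Kcnj6, a G-protein-gated inward rectifier, ranged from 124.1 to 233.3 CPM and was most like Tnr (0.76), Grin2a and Aak1 (both 0.74). Kcnh3 was most like Psd (0.65), Adgrb2 (0.62) and Prkag1 (0.61).

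Kcng4, a silent modifier subunit, ranged from 15.4 to 77.4 CPM with a median of 54.4. Library 4 was far below all others, at a level of 4.04 against 4.78 for the next lowest. Among the genes most like it were Syt2 (0.67), a calcium sensor of fast transmitter release, and Akap12 (0.65). Without library 4 these values were 0.60 and 0.63.

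To see how members follow the make-up of the tissue, each gene was regressed on scores made from 21 lists of marker genes, the mean standardised level of the list. A member was counted as rising or falling when the limma slope had an adjusted p under 0.05 over all 16683 genes and the correlation was at least 0.3 in size. No Kcn gene is in a list. Since the scores move together, each count is followed by that from a model with all 21 scores at once (the joint model), and by that with the Meg3 level in the model. Where scaling by median ratios to a reference library, in place of the library total, shifted the balance of rising and falling members, that split is given too. The 64 relations named by rule, up to 4 per score and 28 genes in all, each reached the smallest p that 100000 permutations can give (1e-05, also after Benjamini-Hochberg adjustment over the 64), for r and rho alike. They were named because they had passed, so these p-values add no independent evidence. In 52 relations the sign was the same within all 7 identifier blocks and in 12 within 6. Leaving out the 2 libraries farthest from the median score moved no r by more than 0.082. Without the 4 libraries that stand apart all 64 kept their sign, no r moved by more than 0.086 and 63 stayed past the thresholds. Without library 4 alone 62 did, and those lost were Kcnk10 with microglia and Kcna1 with immediate early genes.

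The cerebellar scores had the largest relations. With the granule cell score (Gabra6, Cbln3 and 6 other genes), 14 members rose and 12 fell. These are 17.3% and 14.8% of members, against 6.05% and 5.87% of all genes. Median ratio scaling gave 16 and 9. With the Purkinje cell score, 15 rose (18.5%) and 16 fell (19.8%), against 6.76% and 8.71% of all genes. Under median ratio scaling 19 rose and 11 fell. In the joint model 1 member rose with each score, against 0.312% and 0.246% of all genes. With granule cells it was Kcnc1 (partial r 0.40). With Meg3 in the model 22 and 21 members passed, against 8.50% and 8.21% of all genes.

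Kcnj12, an inward rectifier, ranged from 28.3 to 73.2 CPM with a median of 61.7. Library 4 held the lowest value, at a level of 4.87 against 5.60 for the next. It rose by 0.114 ± 0.0040 log2 (SE) per SD of the granule score (r = 0.84, rho = 0.79), with r of 0.82 without library 4 and 0.76 to 0.96 within blocks. With the Purkinje score r was also 0.84, and 0.80 without library 4. The genes most like Kcnj12 were Slc1a6, Zic2 and Cbln3 (all 0.83), each of which is in a cerebellar list.

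Kcnc1, a fast delayed rectifier of neurons that fire at high rates, followed the same scores. It ranged from 132.2 to 285.03 CPM with a median of 238.9, lowest in library 4, and correlated with the granule score at 0.75 (rho 0.68) and with the Purkinje score at 0.69 (rho 0.56). Without library 4 these were 0.72 and 0.62. Its relation to the Purkinje score was not past the thresholds in the joint model (partial r -0.025). Kcnd2, the A-type channel of dendrites, ranged from 119.7 to 184.4 CPM and correlated with the granule score at 0.69, and at 0.70 without library 4.

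Forebrain neuron scores touched more members. With the cortical and hippocampal excitatory score (Slc17a7 and others), 27 members rose (33.3%) and 16 fell (19.8%), against 12.5% and 9.97% of all genes. With the striatal projection neuron score, 23 rose (28.4%) and 14 fell (17.3%), against 12.1% and 9% of all genes. The joint model gave 2 up and 1 down for cortex (all genes 1.01% and 0.953%) and 1 up and 0 down for striatum (0.306% and 0.048%). With Meg3 in the model 31 and 21 members passed, against 8.82% and 7.16% of all genes.

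Kcnq5, an M-current subunit, ranged from 96.7 to 143.1 CPM with a median of 114.45 and was highest in the library of low hypothalamic score. It rose by 0.0749 ± 0.0035 log2 per SD of the cortical score (r = 0.76, rho = 0.73, 0.41 to 0.84 within blocks), and the joint partial r was 0.40. Its most like genes were Phf24 (0.77), Kalrn (0.74) and Mef2c (0.73). Kcnmb4 ranged from 32.8 to 49.1 CPM, highest in library 4, and correlated with the cortical score at 0.61 (0.60 without library 4), with a joint partial r of 0.35. Kcnip2, the calcium sensor that speeds recovery of A-type channels, ranged from 64.7 to 111.3 CPM with a median of 82.1. It rose with the striatal score (r = 0.75, rho = 0.73, 0.54 to 0.78 within blocks; joint 0.40) and with the cortical score (r = 0.68). Pde2a (0.83), Ptpn5 (0.79) and Kifc2 (0.78) were most like it. Kcnh4 ranged from 9.26 to 21.5 CPM and correlated with the striatal score at 0.57. Kcnk4 correlated with the cortical score at 0.62 and the striatal score at 0.64. In the joint model its relation to the cortical score was of the opposite sign (-0.12) and not past the thresholds.

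Scores of deeper regions had more falling than rising members under scaling to the library total, and the same held for all genes. With the monoamine neuron score 9 members rose (11.1%) and 26 fell (32.1%), against 9.92% and 17.6% of all genes. With the hypothalamic neuropeptide score 6 rose (7.41%) and 22 fell (27.2%), against 7.46% and 10.7%. With the thalamic score 5 rose (6.17%) and 12 fell (14.8%), against 4.19% and 6.64%. Median ratio scaling gave 15 and 21 for monoamine and 14 and 13 for thalamic neurons. The joint model gave 0 members for monoamine, 4 falling members for hypothalamic (all genes 0.462%) and 1 rising member for thalamic neurons (0.0659%). With Meg3 in the model 15, 11 and 1 members passed for monoamine, hypothalamic and thalamic neurons, against 4.93%, 4.02% and 0.815% of all genes. The member that rose with the thalamic score in the joint model was Kcnc2 (partial r 0.35).

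Kcnj16, an inward rectifier that pairs with Kcnj10, ranged from 27.5 to 56.3 CPM with a median of 40.7 and was lowest in the library of low hypothalamic score. It rose with the monoamine score (r = 0.62, 0.28 to 0.76 within blocks) and the hypothalamic score (r = 0.54). Its most like genes were Slc17a6 (0.64), Fgf1 and Tppp3 (both 0.62). Kcnh2, the channel of the rapid cardiac delayed rectifier, ranged from 54.4 to 86.5 CPM and rose with the hypothalamic score (r = 0.52). Kcnk4 (-0.65), Kcnq5 (-0.64) and Kcnip2 (-0.62) fell with the monoamine score, and Kcnk4 (-0.51), Kcnip2 (-0.46), Kcnh4 (-0.44) and Kcnf1 (-0.42) with the thalamic score. In the joint model the 4 members that fell with the hypothalamic score were Kcna2 (-0.36), Kcnh5 (-0.34), Kcnj6 and Kcnq3 (both -0.31). With the inhibitory interneuron score (Pvalb, Sst, Gad1 and others) 0 members rose or fell, against 0.00599% and 0.012% of all genes, in the limma fit. Over all 16683 genes 1 rose and 2 fell, the 10 list genes included, each fitted on a score without itself. Most list genes thus did not pass with the others of their list, so this count says little about interneurons. The joint model also gave 0 and 0 (all genes 0.00599% and 0.018%). At an adjusted p under 0.05 without the limit on r 5 did, and median ratio scaling gave 3 up and 4 down.

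**Figure D3:**
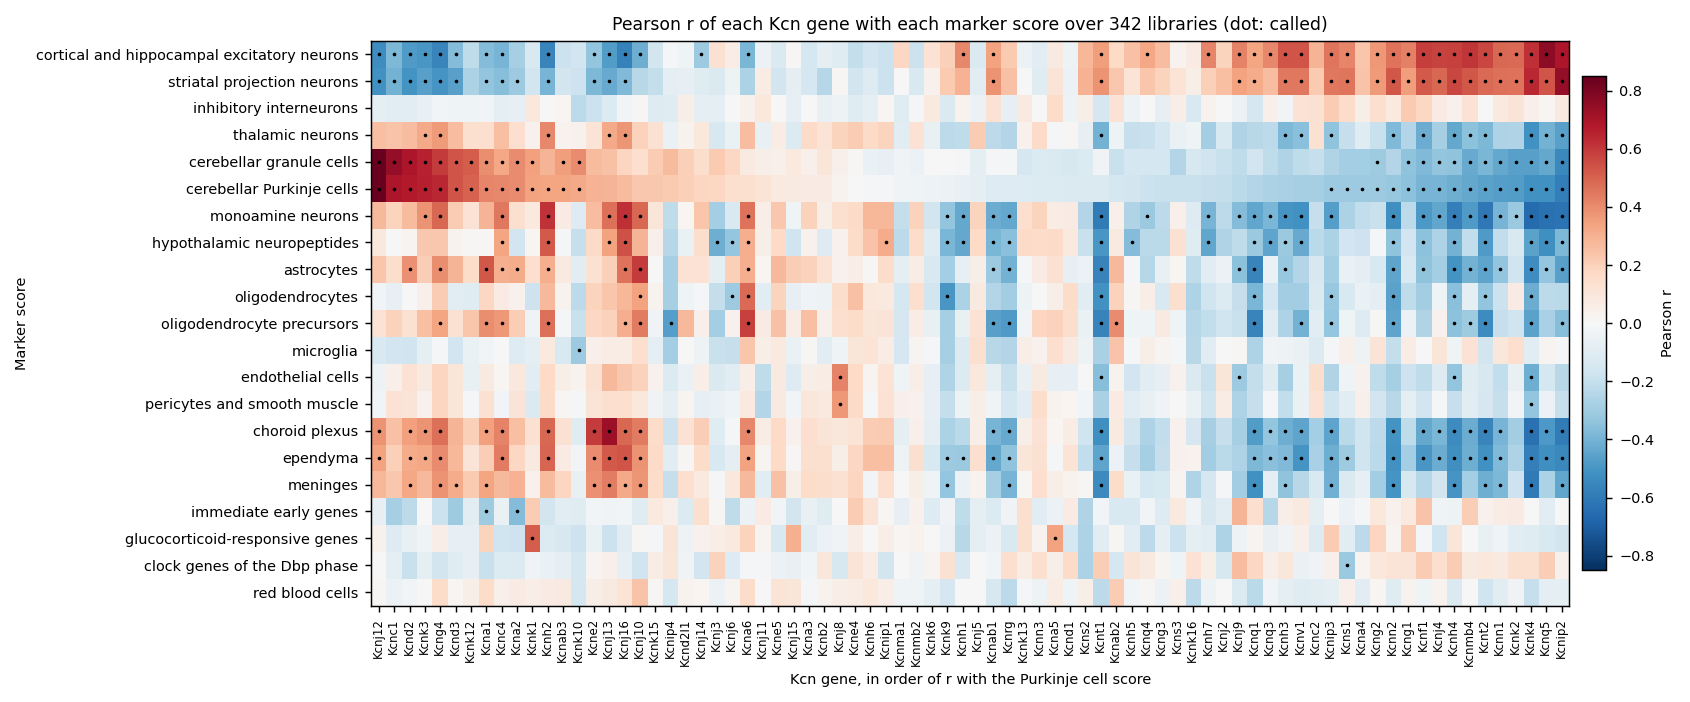
Correlation over all libraries of tested Kcn genes (columns, ordered by r with the Purkinje cell score) with 21 marker scores (rows). A dot marks a member past both thresholds; cortical, striatal and cerebellar rows hold blocks of opposite colour, and the interneuron and red blood cell rows hold no dot.

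With the astrocyte score 10 members rose (12.3%) and 15 fell (18.5%), against 6.64% and 16.3% of all genes. Median ratio scaling gave 17 and 8. In the joint model 2 rose and 1 fell (all genes 0.623% and 0.935%), and 3 passed with Meg3 in the model (all genes 1.97%). Kcnj10 rose by 0.0708 ± 0.0052 log2 per SD of the astrocyte score (r = 0.59, rho = 0.58, 0.38 to 0.73 within blocks; joint 0.35). Atp1b2 (0.66), a sodium pump subunit of astrocytes, and Nefh (0.62) were among the genes most like it. Kcna1 also rose (r = 0.53; joint 0.35). Kcnt1 (r = -0.57; joint -0.33) and Kcnq1 (r = -0.56) fell, and with Meg3 in the model r was -0.19 and -0.30.

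With the oligodendrocyte score 2 members rose and 11 fell, against 4.89% and 10.9% of all genes, and with the precursor score 9 rose and 13 fell, against 6.94% and 17%. Median ratio scaling gave 7 and 9, and 17 and 9. The joint model called 0 rising and 9 falling members with oligodendrocytes (all genes 4.65% and 4.04%), and 12 rising and 3 falling with precursors (4.32% and 7.99%). The 2 sets shared members with opposite signs. Among these, Kcnc1, Kcnc4 and Kcnk12 rose with precursors (0.43, 0.42 and 0.43) and fell with oligodendrocytes (-0.33, -0.32 and -0.36). With Meg3 in the model 4 and 8 passed, against 2.67% and 7.82% of all genes. Kcna6, a delayed rectifier, ranged from 147.6 to 218.4 CPM with a median of 185.1 and rose with the precursor score (r = 0.58; joint 0.33) and the oligodendrocyte score (r = 0.48). Endod1 (0.63), Myrf (0.61) and Acly (0.60) were most like it. Kcnk9, an acid-sensitive leak channel, ranged from 53.6 to 85.5 CPM and fell with the oligodendrocyte score (r = -0.50; joint -0.43), as did Kcnt1 (-0.51; joint -0.32) and Kcnn2 (-0.46). Kcnt2 fell with the precursor score (-0.54; joint -0.38).

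Microglia, the immune cells of the brain, had 0 rising and 1 falling member (all genes 0.665% and 0.617%), 2 and 6 under median ratio scaling, and 0 in the joint model and with Meg3. The falling member was Kcnk10 (r = -0.31, rho = -0.31), a mechanosensitive leak channel at 13.4 to 27.1 CPM. Without library 4 its r was -0.30 and 0 members passed. Its most like genes were Syne1 (0.63), Eml5 (0.59) and Ablim1 (0.58). Red blood cell genes had 0 and 0 (all genes 0.0719% and 0.012%) in the limma fit, with 14 at an adjusted p under 0.05 alone.

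Vessel scores had few members past the thresholds. Kcnj8, the pore of the ATP-sensitive channel of vascular cells, ranged from 1.08 to 4.33 CPM with a median of 2.41, a low level in every library. With the endothelial score 1 member rose (1.23%) and 4 fell (4.94%), against 2.42% and 2.45% of all genes. With the pericyte and smooth muscle score 1 rose and 1 fell, against 1.9% and 0.929% (1 and 2 under median ratio scaling). Kcnj8 was the rising member for both: r = 0.42 (rho = 0.41, 0.24 to 0.67 within blocks) with endothelial cells and 0.37 (rho = 0.36) with pericytes. As 1.23% of members, a single rising gene was below the share of all genes for both scores. Kcnk4 fell with both (r = -0.41 and -0.33), and Kcnt1 (-0.36) and Kcnh4 (-0.34) fell with the endothelial score. Abcc9, its regulatory subunit, is in the pericyte list and is its chromosomal neighbour. Flt1 (0.45), Pecam1 (0.44) and Abcc9 (0.42) were most like Kcnj8. In the joint model 0 members passed for either score, and with Meg3 in the model 1 passed for each, against 1.22% and 1.38% of all genes.

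With the choroid plexus score 13 members rose and 19 fell, against 8.94% and 16.6% of all genes (16 and 15 under median ratio scaling). The joint model gave 2 rising members (all genes 0.294%), and 8 passed with Meg3 (all genes 2.66%). The 2 in the joint model are Kcn genes known from this epithelium, which secretes cerebrospinal fluid. Kcnj13, an inward rectifier of secretory and pigment epithelia, ranged from 5.93 CPM in the library of low hypothalamic score to 20.02 with a median of 12.5. It rose by 0.178 ± 0.0090 log2 per SD of the score (r = 0.73, rho = 0.72, 0.51 to 0.81 within blocks; joint 0.61). Enpp2 (0.74) and Cldn2 (0.70), both in the choroid list, and Sostdc1 (0.70) were most like it. Kcne2, an auxiliary subunit, ranged from 4.48 to 11.4 CPM with a median of 7.69 (r = 0.59, rho = 0.57, 0.01 to 0.74 within blocks; joint 0.46). Kcnk4 (-0.63) and Kcnip2 (-0.59) fell.

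The ependyma score, from genes of motile cilia, had 12 rising (14.8%) and 23 falling members (28.4%), against 7.94% and 11.9% of all genes. There were 0 in the joint model and 14 with Meg3 (all genes 3.66%). Kcnj16 (0.53) and Kcnj13 (0.52) rose, Kcnk4 (-0.58) and Kcnip2 (-0.55) fell, and in the joint model Kcnj13 (-0.043), Kcnk4 (0.012) and Kcnip2 (0.14) were of the opposite sign. The meninges score had 9 rising (11.1%) and 12 falling members (14.8%), against 7.65% and 15.5% of all genes. Counts were 18 and 10 under median ratio scaling, and 0 in the joint model and with Meg3 (all genes 1.47%). Kcnk4 (-0.60), Kcnt1 (-0.54), Kcnq1 (-0.51) and Kcnh4 (-0.50) fell. With Meg3 in the model Kcnk4 stood at -0.14 and Kcnt1 at 0.019.

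**Figure D4:**
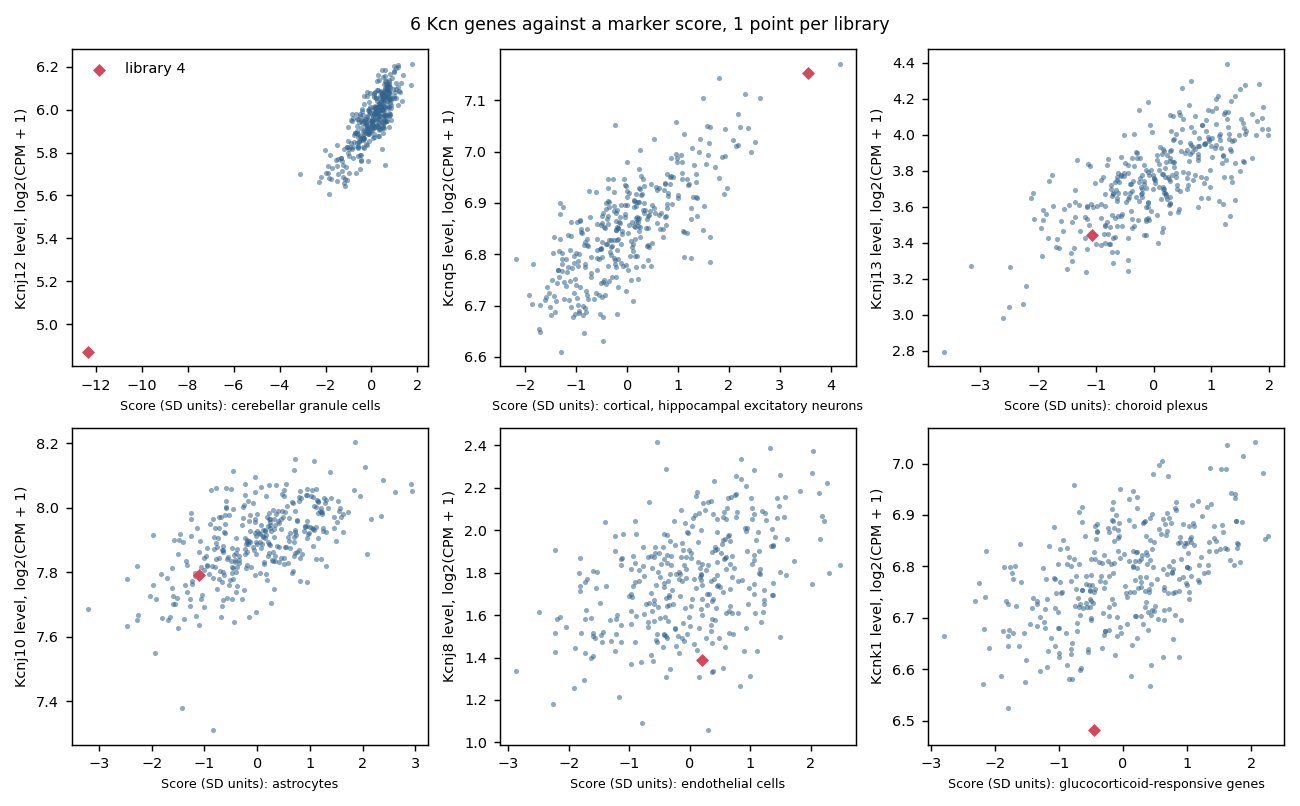
Level of 6 members (log2 of CPM plus 1) against a marker score in SD units, 1 point per library, library 4 as a red diamond. Kcnj12 rises with the granule score (r = 0.84) and Kcnq5 with the cortical score (0.76); Kcnj13, Kcnj10, Kcnj8 and Kcnk1 rise with the choroid (0.73), astrocyte (0.59), endothelial (0.42) and glucocorticoid (0.51) scores.

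Scores of transient state touched few members. With the glucocorticoid-responsive score (Sgk1, Fkbp5 and others), 2 members rose and 0 fell, against 2.02% and 1.23% of all genes. Kcnk1 ranged from 88.3 to 130.8 CPM with a median of 109.1 and rose by 0.0496 ± 0.0045 log2 per SD (r = 0.51, rho = 0.50, 0.27 to 0.68 within blocks; joint 0.52). Wfdc1 (0.59), Gjb6 and Cry1 (both 0.57) were most like it. Kcna5, a delayed rectifier at 3.90 to 9.30 CPM, rose as well (r = 0.34; joint 0.34). The joint model called 3 rising and 4 falling members (all genes 2.46% and 2.54%), among the latter Kcnh2 and Kcnc4 (both -0.33) and Kcnc1 (-0.30), and 3 passed with Meg3 in the model (all genes 3.69%).

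Immediate early genes, which are induced by neuronal activity and by handling, had 0 rising and 2 falling members (all genes 2.08% and 0.647%). Kcna2 (r = -0.37, rho = -0.33, -0.51 to 0.31 within blocks) and Kcna1 (r = -0.30, rho = -0.28) fell. Kcna1 passed the limit on r narrowly, and without library 4 its r was -0.28. Neither passed in the joint model, where the 1 member called was Kcnj9, which rose (0.30; all genes 2.01% rising and 0.743% falling). With Meg3 in the model 3 members passed, all falling, against 3.38% of all genes in either direction. Kcna2 was most like Ank2, Slc24a2 (both 0.83) and Trpm3 (0.80).

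The score of clock genes that peak with Dbp fell in 2 levels, a lower one of 51 libraries and an upper one of all others. Kcns1, a silent modifier subunit at 10.3 to 21.5 CPM with a median of 13.8, fell with it, and within levels r was -0.58 in the lower and -0.27 in the upper. It was the only member past the thresholds, 0 rising and 1 falling, against 0.486% and 0.258% of all genes, and its joint partial r was -0.45. Median ratio scaling gave 0, and Meg3 in the model 2 (all genes 0.683%). Kctd1 (0.66), Fmnl1 (0.65) and Mast3 (0.62) were most like Kcns1.

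Of 35 other genes that assemble, anchor or regulate potassium and related channels, such as Dpp6, Dlg4, Ank3 and the Hcn genes, 33 were tested. With the granule score 7 rose and 3 fell, 21.2% and 9.09% of partners against 6.05% and 5.87% of all genes. With the Purkinje score 7 rose and 2 fell, 21.2% and 6.06% against 6.76% and 8.71%. With the cortical score 5 rose and 8 fell, 15.2% and 24.2% against 12.5% and 9.97%, and with the striatal score 5 rose and 6 fell, 15.2% and 18.2% against 12.1% and 9%. With the astrocyte score 7 rose and 2 fell, 21.2% and 6.06% against 6.64% and 16.3%. With the choroid score 8 rose and 4 fell, 24.2% and 12.1% against 8.94% and 16.6%. Monoamine and ependyma scores had the largest rising shares of partners (27.3% each, against 9.92% and 7.94% of all genes). Falling shares there were 15.2% and 9.09%, against 17.6% and 11.9%. For thalamic neurons 18.2% rose and 6.06% fell (all genes 4.19% and 6.64%), and for hypothalamic neuropeptides 18.2% and 15.2% (7.46% and 10.7%). Precursors had 21.2% each way (6.94% and 17%). Joint-model and Meg3 counts are not given for partners. With the interneuron, immediate early, clock and red blood cell scores 0 partners passed both thresholds.

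Subunits of 1 channel, or close relatives, were compared in 26 pairs. By permutation of Pearson r with Benjamini-Hochberg adjustment over the 26, 14 pairs were positive, 3 negative and 9 not past the threshold. Kcna1 and Kcna2, which co-assemble beside nodes of Ranvier, rose together (r = 0.68, rho = 0.66, adjusted p = 1.9e-05). Among 16682 genes, Kcna2 ranked 8 in likeness to Kcna1, and Kcna1 ranked 77 in likeness to Kcna2. Kcnj10 and Kcnj16, which form a joint glial channel, stood at 0.57 (rho 0.51, ranks 18 and 22). Kcnj8 and Abcc9 stood at 0.42 (rho 0.40, ranks 3 and 30).

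Other positive pairs included Kcnd2 with Dpp6 (0.53), Kcnt1 with Kcnt2 (0.52), Kcnn1 with Kcnn2 (0.40) and Kcnj3 with Kcnj6 (0.36). Weak positive values belonged to Kcnh1 with Kcnh5 (0.29), Kcnd2 with Dpp10 (0.19) and Kcnd2 with Kcnip4 (0.16). The A-type channel Kcnd2 and its calcium sensor Kcnip2 ran in opposite directions (r = -0.56, rho = -0.54, -0.81 to -0.46 within blocks). Kcnk1 with Kcnk2 (-0.27) and Kcnj6 with Kcnj9 (-0.17) were also negative.

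Pairs not past the threshold on r included textbook partners: Kcna2 with Kcnab2 (r = -0.07, adjusted permutation p = 0.25), Kcna1 with Kcnab1 (-0.09, 0.15), Kcnc1 with Kcnc2 (-0.10, 0.074), Kcnj11 with Abcc8 (-0.07, 0.22) and Kcnj3 with Kcnj9 (-0.11, 0.055). By rho Kcnj3 with Kcnj9 did pass (rho = -0.12, adjusted permutation p = 0.046), and its r was negative within all 7 blocks. Kcnd3 with Kcnip1 and Kcnma1 with Kcnmb4 (both 0.96), Kcnk3 with Kcnk9 (0.62) and Kcnj2 with Kcnj4 (0.97) had higher adjusted p on r. The test of Kcnma1 with Kcnmb4 pooled the upper and lower levels of Kcnma1, where r was -0.12 and 0.48. The pooled value therefore cannot say whether these genes are related within a level, which was not tested. Once the first 10 principal components of the libraries were removed, 6 pairs were positive and 1 negative past the threshold, among them Kcna2 with Kcnab2 (0.26) and Kcnc1 with Kcnc2 (0.19), which had not passed before. Kcna1 with Kcna2 (0.42), Kcnj8 with Abcc9 (0.42) and Kcnj10 with Kcnj16 (0.34) were the largest, and Kcnd2 with Dpp6 fell to 0.0032. Kcnt1 with Kcnt2 fell to 0.027, Kcnn1 with Kcnn2 to 0.060 and Kcnj3 with Kcnj6 to 0.12. The negative r of Kcnd2 with Kcnip2 shrank from -0.56 to -0.14.

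**Figure D5:**
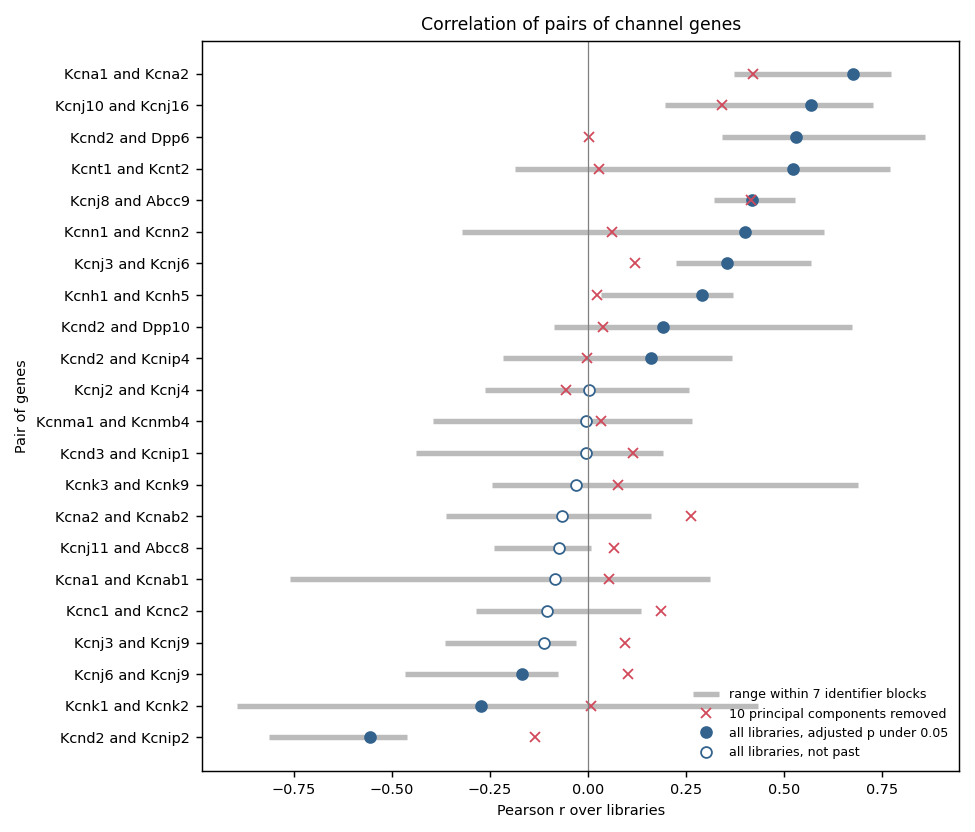
Correlation over all libraries of pairs of channel genes, filled circles past the adjusted threshold and open circles not, with the grey bar as the range within 7 identifier blocks and the cross as r after 10 principal components were removed. Kcna1 with Kcna2 is at the top of the plot (r = 0.68) and Kcnd2 with Kcnip2 at its foot (-0.56).

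Over all 3240 pairs of tested members, the median size of r was 0.14, against 0.0997 over all pairs of tested genes, and 3.49% of pairs reached 0.5 in size against 1.19%. The median of r, sign included, was 0.023 for pairs within a subfamily and 0.017 for the 3009 pairs between subfamilies. For 16 of 81 members (19.8%) the most like member was in its own subfamily, where 7.13% of all pairs lie within one. Among the largest values were Kcnh7 with Kcnq3 (0.78), Kcnh5 with Kcnq3 (0.75) and Kcnk4 with Kcnt1 (0.74). The most negative was Kcnh2 with Kcnt2 (-0.71). These values describe libraries that share tissue make-up and carry no test.

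Neighbouring genes within 500 kb, a scan added after the data were seen, were examined after removal of 10 principal components. A neighbour at 0.5 or more in size was found for 4 of 77 members with a tested neighbour, against 6.42% of all genes. Among them were Kcnma1 with Dlg5 (0.92), Kcnh3 with Tuba1b (-0.72, before removal -0.52) and Kcne2 with Clic6 (0.54, before 0.59). Clic6 is in the choroid plexus list. Kcnh3 and Tuba1b, a tubulin gene at chr7:131969606-131972587, start 271.9 kb apart. Among members that lie next to each other, Kcna1 and Kcna6 correlated at 0.46, Kcna2 and Kcna3 at 0.43, and Kcnj9 and Kcnj10 at -0.36. Kcnd2l1 overlaps Kcnd2 on the same strand, so the division of reads between them is uncertain, and their r was 0.21. Kcnip1 and Kcnmb1 overlap on opposite strands.

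The first 6 characters of each library's identifier define blocks, and the 7 blocks with at least 8 libraries were compared. The labels do not say what a block stands for. Between blocks 11 of 81 members differed (13.6%), against 8.21% of all genes, by limma's moderated F-test. Among them were Kcna2, Kcnc4, Kcnj13 and Kcnj10, with Kcne2, Kcna1, Kcnh1, Kcnk15 and Kcns2. Kcna2 had block means of 8.63 to 8.79 (F = 5.48, adjusted p = 0.0020), with 9.05% of its variance between blocks. Kcnj13 had block means of 3.44 to 3.95 (adjusted p = 0.0055). Of the partner genes 5 of 33 differed, and 1 did so without library 4. Without the 5% of libraries of lowest total, 4 members differed (4.94%), against 3.69% of all genes.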

How the data were processed

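PolyA RNA of whole brain hemispheres was measured in 342 libraries; the labels name 352 samples, and the other 10 are not analysed here. The deposited log2 values are log2 of an estimated count per gene plus 1, made with kallisto per the submitters' processing notes, which give neither version nor settings; 63.2% of turned-back values between 0.5 and 5 were whole within 0.002. RNA was extracted with TRIzol and libraries were made with a directional kit, per the labels' protocols. The labels also report that 14 libraries were renamed after a genotype check.

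Estimated counts were recovered, scaled to 1000000 per library and written as log2 of CPM plus 1. Low genes are the least precise: counting error follows the totals given above. Positions are those of RefSeq genes on GRCr8, to which 38278 of 38354 names and all 95 members matched by symbol. Slopes and block differences were tested with limma 3.58.1 in R 4.3.3 (mean-variance trend, Benjamini-Hochberg adjustment), relations and pairs by two-sided permutation with numpy 2.4.6, and lowess curves with statsmodels 0.14.6. Scores are the mean standardised level of the listed marker genes whose own mean level reached 1, so Fev, Ccdc153 and Slc4a1 were not used. Separate levels needed a drop of more than 10 in the Bayesian information criterion for mixtures of 1 to 3 curves with a common SD, means 4 SD apart and at least 5% of libraries each. The tests were also run on simulated data with known answers, whose outcome is not given here. Simulated separate levels held a larger share of libraries than the 4.09% of the low Kcnma1 group, so they do not cover that case.

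Members, marker lists, partner genes and pairs were chosen with earlier results of these data known. Named with values are the leading gene of each subfamily, the 12 members of largest spread, up to 4 members per score, both genes of each pair and the 5 members of largest F between blocks; the 3 genes of largest r are named for the 12 members and for the first member of each score. Results on a few genes are not reported here and were left out of the plots and of the named results, while counts and sums include them. The alternatives were other pseudocounts, scalings, level minimums, thresholds, covariates and libraries. Those without library 4, without the 4 libraries that stand apart, with Meg3 in the model and with a 2% share were added after seeing the data. The labels do not tie libraries to animals or litters, so a p-value reflects only library-to-library spread. The 7 blocks compared hold 335 libraries.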

Additional observations from a re-analysis of the deposited data

How the results depend on the processing

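Depth decided most when it was not corrected. With the values as deposited, 0 members had a wide spread, 30 fell in separate levels, 51 differed between blocks, 80 rose or fell with the granule cell, Purkinje cell and immediate early scores and 81 with each of the other 18 scores, 26 pairs were positive and 0 negative, and the log2 of the summed Kcn counts averaged 17.15, against 12.74 for the summed CPM. Of the 64 named relations, 33 reversed there, all from negative to positive. These were Kcnk4 with thalamic (0.5515), monoamine (0.3088), endothelial (0.7001), pericyte (0.6463), choroid (0.4931), ependyma (0.585) and meninges (0.5635) scores, Kcnip2 with thalamic (0.775), monoamine (0.5155), choroid (0.6859) and ependyma (0.7614) scores, and Kcnt1 with hypothalamic (0.5554), astrocyte (0.81), oligodendrocyte (0.7804), precursor (0.7807), endothelial (0.7811) and meninges (0.6609) scores. Kcnh4 reversed with thalamic (0.6366), endothelial (0.7654) and meninges (0.6443) scores, Kcnq1 with astrocyte (0.7012), precursor (0.6696) and meninges (0.5448) scores, and Kcnq5 with monoamine (0.5762) and hypothalamic (0.6944) scores. So did Kcnf1 with thalamic (0.8179), Kcnk9 (0.8979) and Kcnn2 (0.893) with oligodendrocyte, Kcnt2 with precursor (0.7693), Kcnk10 with microglia (0.8252), Kcna2 (0.4819) and Kcna1 (0.5174) with immediate early and Kcns1 with clock (0.6728) scores. The pairs that reversed were Kcna2 with Kcnab2 (0.9503), Kcna1 with Kcnab1 (0.9614), Kcnc1 with Kcnc2 (0.9351), Kcnd2 with Kcnip2 (0.8784), Kcnd3 with Kcnip1 (0.8923), Kcnma1 with Kcnmb4 (0.8345), Kcnj3 with Kcnj9 (0.942), Kcnj6 with Kcnj9 (0.9054), Kcnj11 with Abcc8 (0.9071), Kcnk1 with Kcnk2 (0.9284) and Kcnk3 with Kcnk9 (0.8817). By construction every gene's deposited value there follows the library total.

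Fitting all 21 scores in 1 model gave 3 members for cortical, 1 each for striatal, thalamic, granule, Purkinje and immediate early, 4 for hypothalamic, 3 for astrocyte, 2 for choroid and 0 for monoamine, microglia, endothelial, pericyte, ependyma and meninges scores, and 7 for glucocorticoid genes. The 1 for immediate early genes was Kcnj9, not called before. The joint model kept 17 of the 64 relations past the thresholds. In 6 others the sign changed, with no value past the thresholds. These were Kcnk4 with cortical (-0.1151), pericyte (0.005976) and ependyma (0.01167), Kcnc1 with Purkinje (-0.02491), Kcnip2 with ependyma (0.137) and Kcnj13 with ependyma (-0.04275). Kcnt1 with endothelial (0.022) and meninges (0.01893) scores changed sign with Meg3 in the model, neither past the thresholds. Meg3 in the model kept 45 of the 64 relations. It changed the counts to 21 striatal, 1 thalamic, 15 monoamine, 11 hypothalamic, 3 astrocyte, 4 oligodendrocyte, 8 precursor, 0 microglia, 1 endothelial, 1 pericyte, 8 choroid, 14 ependyma, 0 meninges and 2 clock. Adjusted p alone, with no limit on r, gave 68 cortical, 63 striatal, 5 interneuron, 59 thalamic, 60 granule, 62 Purkinje, 68 monoamine, 61 hypothalamic, 55 astrocyte, 49 oligodendrocyte, 53 precursor, 24 microglia, 31 endothelial, 25 pericyte, 64 choroid, 65 ependyma, 58 meninges, 24 immediate early, 21 glucocorticoid, 20 clock and 14 red blood cell. Median ratio scaling gave 7 interneuron, 27 thalamic, 8 microglia, 1 immediate early and 0 clock, and turned Kcna2 with Kcnab2 to 0.1367.

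Smaller changes were these. The microglia count was 0 with block means removed and 0 without library 4. The immediate early count was 1 with a pseudocount of 0.1, without library 4, without the 4 libraries that stand apart, and without the 5% of libraries with fewest genes or lowest totals. A level minimum of 3 gave 1 for pericyte and 1 for glucocorticoid scores, since Kcnj8 and Kcna5 lie under it. Without the 5% of libraries with fewest genes or lowest totals 4 members differed between blocks. At 1.5 times the trend 18 members were wide, and with a 2% share 1 member formed separate levels. Removing 10 principal components left 6 positive pairs and 1 negative. Kcna2 with Kcnab2 (0.2627) and Kcnc1 with Kcnc2 (0.1854) changed sign and passed the threshold. Kcnd2 with Kcnip4 (-0.004044), Kcnj6 with Kcnj9 (0.1021) and Kcnk1 with Kcnk2 (0.007053) changed sign and were not past it. Other scalings, pseudocounts, covariates and sets of libraries kept 61 to 64 of the named relations. Except where stated, the cause of a change was not tested. The order of members by level per length was not run, for want of transcript lengths. No paired analysis was possible because all libraries form 1 group. Members near 1 CPM rest on few counts in the smallest libraries.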
